A study of Mus musculus with 14 samples.

Results

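The genes described here are 53 genes that dividing cells switch on, 30 of mitosis and 23 of DNA replication and the step from G1 into S phase. They were chosen by gene symbol, and each was read from the probe set with a single gene symbol that was brightest over all arrays. Of the 53 genes, 45 were measured (26 of mitosis and 19 of replication), out of 18820 genes tested on the arrays. Ccnb1 had no probe set in the annotation used, and Foxm1, Kif20a, Nusap1, Gins2, Rfc4, Tyms and Ccne2 lay on probe sets that carry several symbols, so these 8 genes were not analysed here. RNA of isolated pancreatic islets was measured on an expression array, with 1 array per mouse. Mice of C57BL/6 background that carry a double knockout of Tlr2 and Tlr4 (DKO), and so lack receptors for bacterial lipoproteins and lipopolysaccharide, were set against wild-type C57BL/6 (WT) mice. All mice were put on a diet with 60% fat at 6 weeks of age. Islets were taken after 7 months from 4 DKO and 4 WT mice, and after 5 weeks from 2 DKO and 4 WT mice, so that mice on the diet for longer were also older, and time and age cannot be told apart. No group on a normal diet is analysed here. The title of the series names the expansion of beta cells in obesity, and these genes bear on it because they report dividing cells.

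In a dividing cell, E2F factors and cyclin E open S phase, the MCM helicase is loaded on replication origins and fired, and polymerases copy the DNA from nucleotides that ribonucleotide reductase supplies. Cyclin A, cyclin B and Cdk1 then drive mitosis, in which kinetochores attach chromosomes to the spindle, checkpoint kinases hold the cell until all are attached, and a cleavage furrow parts the daughters. Most adult beta cells rest outside the cell cycle, and in mice a high-fat diet raises the share that divides. The RNA of an islet comes from endocrine, endothelial, stromal and immune cells together.

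Promoter sequences are shown for the 3 mitosis members and the 3 replication members with the largest SD over the 14 arrays among those with a promoter window in RefSeq, because both sets of genes are known for different control elements. Textbook control of late cell cycle genes runs through a CHR element, often near CCAAT boxes, and that of S phase genes through E2F sites. Each sequence runs 5′ to 3′ on the strand of the gene, over 250 bases before and 50 bases after the start in RefSeq (GRCm38.p6), and so covers the promoter and the first transcribed bases. Capitals mark letters that match CHR (TTTGAA), the CCAAT box (CCAAT) or E2F (TTTCCCGC, TTTGGCGC, TTTCGCGC or TTTGCCGC) on either strand. The windows lie at chr7:135716330-135716629 on the minus strand for Mki67, chr11:99024140-99024439 on the minus strand for Top2a, chr9:70421505-70421804 on the minus strand for Ccnb2, chr11:98907901-98908200 on the plus strand for Cdc6, chr8:75109259-75109558 on the plus strand for Mcm5 and chr1:20820263-20820562 on the minus strand for Mcm3.
Mki67: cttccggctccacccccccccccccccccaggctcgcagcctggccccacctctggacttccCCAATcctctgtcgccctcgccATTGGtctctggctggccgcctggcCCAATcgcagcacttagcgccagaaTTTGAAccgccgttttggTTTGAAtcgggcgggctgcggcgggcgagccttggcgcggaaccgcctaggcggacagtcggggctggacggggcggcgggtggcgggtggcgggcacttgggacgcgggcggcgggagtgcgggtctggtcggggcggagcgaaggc
Top2a: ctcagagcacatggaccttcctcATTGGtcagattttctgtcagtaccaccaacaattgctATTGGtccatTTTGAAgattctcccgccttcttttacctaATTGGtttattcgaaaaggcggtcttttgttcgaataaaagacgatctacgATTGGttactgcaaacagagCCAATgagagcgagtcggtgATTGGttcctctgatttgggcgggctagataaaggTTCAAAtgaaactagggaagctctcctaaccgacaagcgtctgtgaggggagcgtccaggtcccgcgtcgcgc
Ccnb2: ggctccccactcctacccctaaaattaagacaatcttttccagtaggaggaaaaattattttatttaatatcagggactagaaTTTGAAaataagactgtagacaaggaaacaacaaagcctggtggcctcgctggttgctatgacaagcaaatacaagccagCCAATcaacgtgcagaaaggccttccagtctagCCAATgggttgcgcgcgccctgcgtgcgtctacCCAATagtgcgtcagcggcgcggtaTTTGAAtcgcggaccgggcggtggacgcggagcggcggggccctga
Cdc6: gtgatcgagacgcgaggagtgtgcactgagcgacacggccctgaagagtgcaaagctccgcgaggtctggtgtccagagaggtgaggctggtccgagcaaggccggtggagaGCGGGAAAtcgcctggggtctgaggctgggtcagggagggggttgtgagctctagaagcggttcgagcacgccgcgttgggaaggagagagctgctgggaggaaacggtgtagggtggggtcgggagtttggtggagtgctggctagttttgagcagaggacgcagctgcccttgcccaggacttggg
Mcm5: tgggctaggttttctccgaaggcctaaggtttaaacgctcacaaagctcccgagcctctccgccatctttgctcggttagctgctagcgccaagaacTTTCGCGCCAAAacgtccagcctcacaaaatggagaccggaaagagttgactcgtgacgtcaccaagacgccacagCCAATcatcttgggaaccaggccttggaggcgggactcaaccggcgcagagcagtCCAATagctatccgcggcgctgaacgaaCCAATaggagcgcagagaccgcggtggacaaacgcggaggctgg
Mcm3: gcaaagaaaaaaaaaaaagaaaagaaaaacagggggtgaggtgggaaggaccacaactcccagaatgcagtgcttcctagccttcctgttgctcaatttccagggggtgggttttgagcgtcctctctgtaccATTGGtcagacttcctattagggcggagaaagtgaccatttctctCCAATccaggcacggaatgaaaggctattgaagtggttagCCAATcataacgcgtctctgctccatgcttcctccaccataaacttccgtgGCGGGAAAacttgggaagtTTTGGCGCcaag

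The 3 mitosis promoters each hold 2 CHR matches and several CCAAT boxes and no E2F match, and the 3 replication promoters each hold at least 1 E2F match and no CHR match. Counted from the start, the CHR matches begin at positions -116 and -98 in Mki67, at -179 and -23 in Top2a and at -167 and 5 in Ccnb2. The E2F matches begin at -138 in Cdc6, at -153 and -149 in Mcm5 and at 20 and 39 in Mcm3. The 2 E2F matches of Mcm5 overlap each other, and its promoter and that of Mcm3 also hold CCAAT boxes. Windows were found for 45 of the 53 genes, some with several starts. CHR letters stood in 20 of 27 windows of mitosis genes (74.1%) and in 2 of 22 windows of replication genes (9.09%), against 17.9% of all 32851 windows of the same length. E2F letters stood in 3.7% of mitosis windows and 36.4% of replication windows, against 2.26% of all. CCAAT boxes were in 70.4% of mitosis windows and 68.2% of replication windows, against 37.4% of all. A match of letters describes the sequence and is not a measured site.

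As a check of the labels, Tlr2 lay at 5.18 to 5.41 in DKO and 6.24 to 6.53 in WT islets at 7 months, and at 4.77 and 4.82 in DKO against 6.22 to 6.62 in WT islets at 5 weeks (log2 signal), a difference of -1.06 ± 0.10 and of -1.66 ± 0.12 (SE, limma adjusted p = 1.61e-05 and 9.71e-06). The Tlr4 probe set was dim (2.70 to 3.60) and not lower in DKO islets, and whether it lies in the deleted stretch is unknown here. Array medians lay between 3.89 and 3.98. The beta cell genes Ins2 (11.76 to 11.99) and Iapp (12.62 to 12.92) were bright in all 14 arrays. The pancreatic enzyme gene Cpa1, a marker of acinar cells, was also present at 6.91 to 11.12.

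The members were dim to moderately bright. Averaged over the 14 arrays, 23 of the 45 measured members lay below all array medians, 19 of the 26 mitosis members and 4 of the 19 replication members. Of all 18820 genes, 7949 did so. For these 23 members the signal is low and may lie near the background of the array, which was not measured here. The size of a difference is less exact for them. The levels ran up to that of Pcna, the sliding clamp of the replication fork, whose group means were 7.46 ± 0.33 in DKO and 7.19 ± 0.09 in WT islets at 7 months, and 7.51 ± 0.32 in DKO and 7.38 ± 0.04 in WT islets at 5 weeks (SD, n = 4, 4, 2 and 4). Signals of different probe sets are not on a common scale, so levels are compared between arrays only. Several probe sets were present for 4 members, Top2a, Kif11, Prc1 and Pcna. Both of Pcna gave nearly the same values (means of 7.37 and 7.36), whereas the dimmer ones of Top2a (1.80 and 1.77), Kif11 (2.35) and Prc1 (2.11) lay far below the brightest, which stands for the gene here. RefSeq also lists pseudogenes of Pcna, and signal from such near-identical copies cannot be told apart from that of the gene.

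Mki67 (probe set 10568714), whose protein coats mitotic chromosomes and is the usual marker of dividing cells, read 5.57, 3.83, 5.02 and 5.13 in DKO and 3.38, 3.65, 5.30 and 5.19 in WT islets at 7 months. At 5 weeks it read 3.52 and 6.22 in DKO islets, and 5.45, 4.84, 5.16 and 5.00 in WT islets. In both groups at 7 months low and high arrays stood side by side, the DKO pair at 5 weeks lay far apart, and the WT arrays at 5 weeks lay close together. In RNA of whole islets, fewer dividing cells and less of these RNAs per cell cannot be told apart. Top2a (probe set 10390707), the topoisomerase that untangles chromosomes before they part, read 4.70, 3.23, 4.50 and 5.03 in DKO and 3.30, 3.54, 4.34 and 4.53 in WT islets at 7 months, and 3.12 and 5.76 in DKO against 4.92, 4.53, 4.46 and 4.43 in WT islets at 5 weeks. The same 4 arrays were low for both genes, namely DKO replicate 2 and WT replicates 1 and 2 at 7 months and DKO replicate 1 at 5 weeks.

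**Figure D1:**
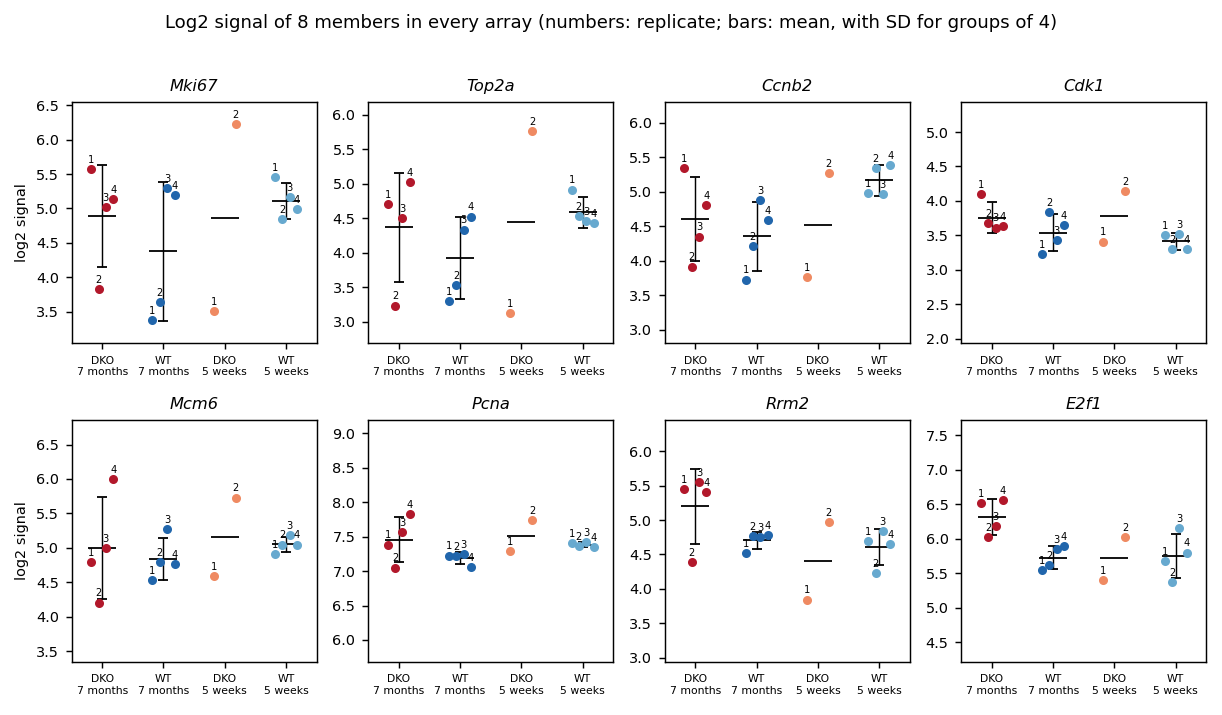
Log2 signal (vertical axes, each spanning the same range) of Mki67, Top2a, Ccnb2, Cdk1, Mcm6, Pcna, Rrm2 and E2f1 in every array, by group, with points numbered by replicate, bars at the group mean and error bars of 1 SD for groups of 4 arrays. The DKO pair at 5 weeks spans 3.52 to 6.22 for Mki67, while the 4 WT arrays at 5 weeks lie between 4.84 and 5.45, and E2f1 is the member shown whose DKO arrays (6.02 to 6.56) all lie above the WT arrays (5.54 to 5.89) at 7 months.

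This low or high state of an array was shared by most members. Each member was centred on its mean over the 14 arrays, and the 45 members were averaged within an array. The members' mean was 0.27, -0.34, 0.18 and 0.36 in DKO and -0.42, -0.34, 0.07 and 0.00 in WT islets at 7 months, and -0.37 and 0.56 in DKO against 0.07, -0.07, 0.05 and -0.01 in WT islets at 5 weeks (log2 units). WT replicate 1 at 7 months was the lowest of the 14 arrays for 14 members, DKO replicate 1 at 5 weeks for 13 and DKO replicate 2 at 7 months for 9. The highest array was DKO replicate 2 at 5 weeks for 19 members, DKO replicate 4 at 7 months for 13 and DKO replicate 1 at 7 months for 7. Across the arrays, 41 of the 45 members correlated with the members' mean at r above 0.5 (Pearson, 14 arrays, each member being part of that mean), with a median r of 0.79, whereas 5.19% of all genes did. Top2a followed it most closely (0.95), and Bub1b (0.20), Cep55 (0.24), Cenpa (0.34) and Prim1 (0.46) did so least. The arrays of a group share genotype and time, so this likeness is a description of these 14 arrays.

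**Figure D2:**
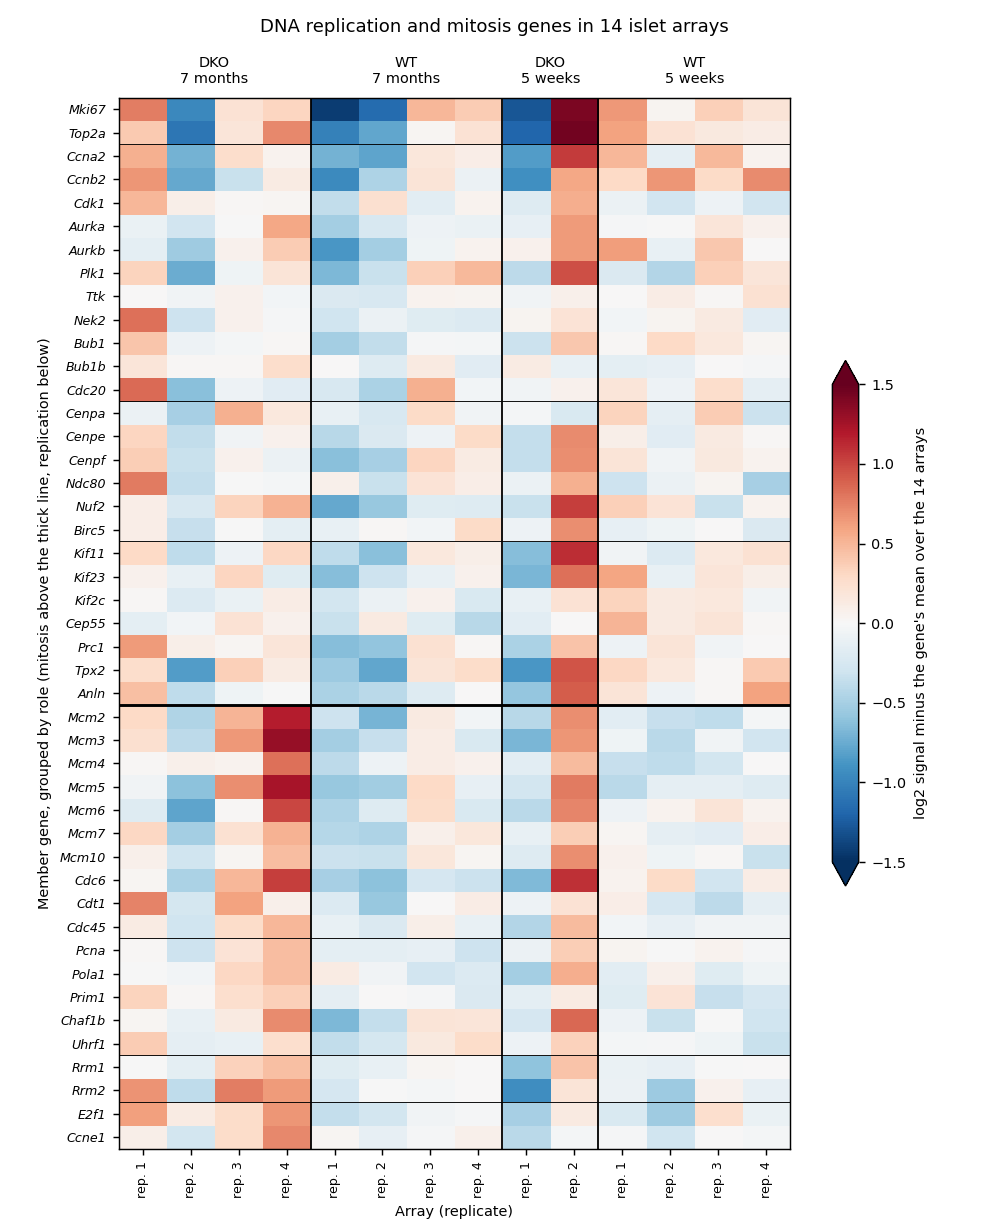
Each row is a measured member and each column an array, with colour giving the log2 signal minus the gene's mean over the 14 arrays (scale from -1.5 to 1.5) and rows grouped by role, mitosis above the thick line. The columns of DKO replicate 2 and WT replicates 1 and 2 at 7 months and of DKO replicate 1 at 5 weeks are blue in most rows, the column of DKO replicate 2 at 5 weeks is red in most rows, and DKO replicate 4 at 7 months is darkest in the replication rows.

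The spread between arrays of the same group was wide for these genes. The pooled SD within groups had a median of 0.34 log2 units over the members, against 0.16 over all genes, and 34 of the 45 members (75.6%) lay in the tenth of genes with the widest spread. The median SD of the members was 0.36 in DKO and 0.26 in WT islets at 7 months, and 0.64 in DKO (2 arrays) and 0.16 in WT islets at 5 weeks. For all genes the same figures were 0.16, 0.13, 0.12 and 0.13. The widest pooled SDs were those of Mki67 (0.92), Top2a (0.81) and Ccna2, or cyclin A2 (0.61). By SD over all 14 arrays, the widest member of each role was Mki67 (0.86) among the proliferation markers, Ccnb2, or cyclin B2 (0.60), among the cyclins and kinases, Nuf2, which binds microtubules at the kinetochore (0.47), Tpx2, a spindle assembly factor (0.54), Cdc6, which loads the helicase (0.57), Chaf1b, a histone chaperone behind the fork (0.41), Rrm2, the regulated subunit of ribonucleotide reductase (0.47), and E2f1 (0.37). The narrowest of each role were Top2a (0.76), the checkpoint kinase Ttk (0.12), Birc5 or survivin (0.25), the microtubule depolymerase Kif2c (0.18), the helicase activator Cdc45 (0.27), Pcna (0.22), Rrm1, the other reductase subunit (0.27), and cyclin E1, Ccne1 (0.27). Ttk was also dim, at 2.25 to 2.72.

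The DKO pair at 5 weeks shows this most plainly. Replicate 2 read higher than replicate 1 in 43 of the 45 members, with a median difference of 0.90 log2 units, against 51.6% of all genes and a median of 0.01. Mki67 differed by 2.70, the largest difference of all 18820 genes, and Top2a by 2.64, the next in rank. Cyclin A2 (1.89), Tpx2 (1.82), Cdc6 (1.76) and the spindle motor Kif11 (1.74) followed among the members. Bub1b, a spindle checkpoint protein (-0.24), and Cenpa, the histone of the centromere (-0.19), were the members that read lower in replicate 2. In all, 87 genes were at least 1 unit higher in replicate 2, of which 21 were members, 16 other genes of mitosis and 5 other genes of replication, and 56 genes were at least 1 unit lower, of which 0 were members. Replicate 2 lay above every WT array of its time in 35 of 45 members (77.8%, against 25.6% of all genes), and replicate 1 lay below every WT array in 27 (60%, against 26% of all genes).

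Levels of cell type markers in the same pair differed less. The mean log2 signal of replicate 2 and replicate 1 was 9.96 and 9.92 for 21 beta cell genes, 6.76 and 6.56 for 16 endothelial genes, 5.42 and 5.15 for 14 stellate cell and fibroblast genes, 2.75 and 2.92 for 12 T and NK cell genes, and 7.82 and 8.28 for 19 acinar genes. Their part in the difference of the members was not tested.

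**Figure D3:**
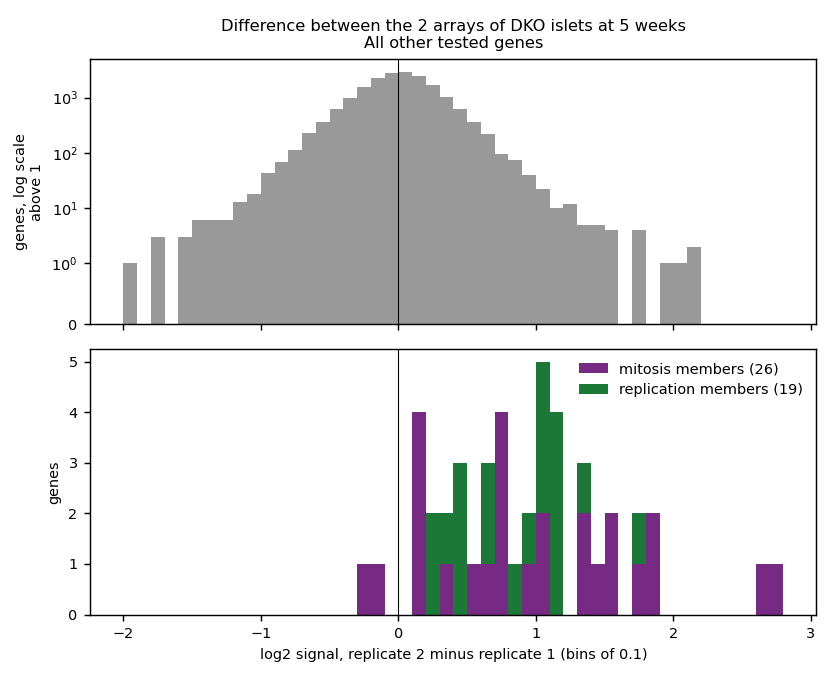
Histogram of the log2 difference between the DKO arrays at 5 weeks, replicate 2 minus replicate 1, for all other tested genes (above, counts on a log scale) and for the 26 mitosis and 19 replication members (below, stacked counts). All other genes centre on 0, and the members lie mostly to the right, with a median of 0.90 and with Mki67 at 2.70.

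Replication members did not follow mitosis members equally in all arrays. The mean of the 19 replication members and that of the 26 mitosis members were 0.20 and 0.32 in DKO replicate 1 at 7 months, -0.28 and -0.39 in replicate 2, 0.32 and 0.08 in replicate 3 and 0.68 and 0.14 in replicate 4. In WT islets at 5 weeks the replication mean was -0.09, -0.16, -0.09 and -0.10, and the mitosis mean was 0.18, 0.01, 0.15 and 0.05. DKO replicate 4 at 7 months thus had the highest replication mean. It lay above every WT array of its time in 17 of 19 replication members (89.5%) and in 9 of 26 mitosis members (34.6%), against 28.3% of all genes. Replicate 3 did so in 14 of 19 replication members (73.7%) and 10 of 26 mitosis members (38.5%), against 27.6% of all genes. Replicate 1 did so in 12 (63.2%) and 17 (65.4%), against 28.7%, and replicate 2 in 2 (10.5%) and 0, against 26.8%. Helicase genes were the highest in replicate 4, with Mcm6 at 6.00 against 4.21 to 5.00 in the other DKO arrays at 7 months, and Mcm5 at 5.82 against 3.96 to 5.28. In DKO replicate 2 at 5 weeks Mcm6 read 5.73 and Mcm5 5.36.

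The same array carried more RNA of lymphocyte markers. The mean of 12 T and NK cell genes (of 13 listed) was 4.25 there, against 2.89 to 2.97 in the other DKO arrays and 2.63 to 2.88 in the WT arrays at 7 months. Cd3e, a chain of the T cell receptor complex, read 5.44 there and 2.37 to 3.43 in all other arrays. The mean of 10 B and plasma cell genes was 4.02, against 2.72 to 2.91 in the other DKO arrays and 2.75 to 2.86 in the WT arrays at 7 months. Among them Jchain (6.25), Cd79b (5.39) and Ms4a1 (4.40) read high there. Cd79a (2.65, WT arrays 2.46 to 2.97) and Mzb1 (3.55, other DKO arrays 3.44 to 3.73) did not stand apart at 7 months. The mean of 20 macrophage genes was 5.83, against 5.26 to 5.52 in the other DKO arrays and 5.25 to 5.38 in the WT arrays at 7 months. The part of these cells in the replication signal was not tested.

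**Figure D4:**
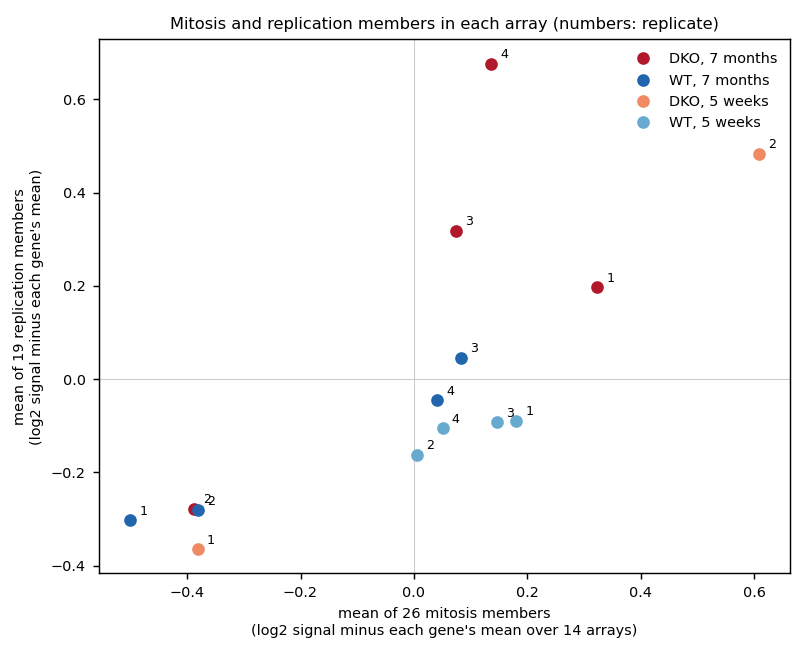
Mean of the 26 mitosis members (horizontal axis) against the mean of the 19 replication members (vertical axis) in each array, as log2 signal minus each gene's mean over 14 arrays, with colours for the groups and numbers for the replicates. Most arrays lie along a rising line, DKO replicate 4 at 7 months lies above it (0.14 and 0.68), and the WT arrays at 5 weeks lie a little below it.

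Genotype at 7 months was compared first, with 4 DKO and 4 WT arrays. E2f1, the factor that switches on S phase genes, had the smallest p of the members, and replication members as a set read higher in DKO islets without any passing the test. Of the 45 members 0 passed limma's test at a Benjamini-Hochberg adjusted p of 0.05 over 18820 genes, against 4.71% of all genes, and 6 members had an unadjusted p under 0.05, all higher in DKO islets (13.3%, against 18.4% of all genes in either direction). The log2 difference, DKO minus WT, was above 0 in 43 of 45 members (53.1% of all genes), with a median of 0.27 against 0.01 over all genes. All 19 replication members and 24 of the 26 mitosis members had a difference above 0, with medians of 0.32 and 0.23. Members share the state of their array, so 43 members in the same direction are not 43 separate observations. P-values here measure the spread between these samples. The fit pools that spread over the arrays of both times, so the test at 7 months also carries the DKO pair at 5 weeks. The median SD of the members was 0.64 in that pair and 0.16 in WT islets at 5 weeks, against 0.36 in DKO and 0.26 in WT islets at 7 months. Fitted on only the arrays compared, 0 of 45 members passed limma's test at 7 months as well, against 488 of 18820 genes.

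E2f1 (probe set 10488785) read 6.51, 6.02, 6.18 and 6.56 in DKO islets and 5.54, 5.62, 5.85 and 5.89 in WT islets at 7 months. Each DKO array lay above each WT array. The difference was 0.59 ± 0.18 (SE, 1.51-fold, limma adjusted p = 0.0723). Prim1, which makes the primers for DNA synthesis, read 5.59, 5.28, 5.51 and 5.61 in DKO islets and 5.13, 5.27, 5.24 and 5.05 in WT islets. These groups also did not overlap, and the difference was 0.33 ± 0.12 (SE, adjusted p = 0.150). E2f1 and Prim1 were the 2 of 45 members whose groups did not overlap at 7 months, against 10.6% of all genes in either direction.

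By role, the median difference at 7 months ran from 0.09 to 0.48, the highest being that of Mki67 and Top2a, which also spread most. The 10 measured genes of origin licensing and firing (Mcm2 to Mcm7 of the helicase, Cdc6 and Cdt1, which load it, and Mcm10 and Cdc45, which help to fire it) all had a difference above 0, with a median of 0.38 and single values from 0.16 for Mcm6 to 0.70 for Cdc6. The 5 genes of the fork and of chromatin copying (Pcna, Prim1, Pola1 of the priming polymerase, Chaf1b, and Uhrf1, which keeps DNA methylation in daughter strands) had a median of 0.29. Those of nucleotide supply (Rrm1 and Rrm2) had a median of 0.36, and E2f1 and Ccne1 one of 0.40. Among the mitosis members, the 11 cyclins, kinases and checkpoint genes had a median of 0.25, the 7 spindle and cytokinesis genes 0.23 and the 6 centromere and kinetochore genes 0.09. Plk1, a kinase with many tasks in mitosis (-0.03 ± 0.32, SE), and Birc5 (-0.14 ± 0.15) were the members below 0. Cdc20, which activates the anaphase-promoting complex (0.05), and the kinetochore genes Cenpa (0.05), Ndc80 (0.08) and Cenpe (0.10) lay near 0. The other mitosis members lay between 0.08 and 0.60, among them the centrosome kinase Nek2 (0.33), the kinetochore protein Cenpf (0.17) and Kif23, a motor of the central spindle (0.27).

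The other members with small p-values were Nuf2 (0.60 ± 0.26, SE), the licensing factor Cdt1 (0.45 ± 0.20), the helicase subunits Mcm3 (0.69 ± 0.31) and Mcm2 (0.61 ± 0.30), the spindle midzone protein Prc1 (0.48 ± 0.22) and Cdc6 (0.70 ± 0.33), with limma adjusted p-values of 0.219 to 0.289. Mcm3 read 4.50, 3.86, 4.91 and 5.57 in DKO islets and 3.75, 3.92, 4.37 and 4.03 in WT islets, so that DKO replicate 2 lay among the WT arrays. DKO replicate 4 was the highest. Cdc6 read 3.11, 2.60, 3.58 and 4.11 in DKO islets and 2.58, 2.46, 2.82 and 2.75 in WT islets, with the same array low. Rrm2 read 5.45, 4.39, 5.55 and 5.41 in DKO islets and 4.52, 4.77, 4.75 and 4.78 in WT islets. Here 3 DKO arrays lay above all WT arrays and DKO replicate 2 below them all, and the difference was 0.49 ± 0.25 (SE, adjusted p = 0.326).

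The number of members that pass depends on that array. Without DKO replicate 2, 5 members rose (E2f1 by 0.69, Rrm2 by 0.76, Cdt1 by 0.64, Mcm3 by 0.98 and Pcna by 0.41, with limma adjusted p-values of 0.0319 to 0.0498), and the count over all genes was 1681 in place of 887. Leaving out DKO replicate 4 lowered the median of the members to 0.18, leaving out WT replicate 1 lowered it to 0.19, and without DKO replicate 2 it was 0.39. Without DKO replicate 4, the array with more lymphocyte RNA, the differences were 0.41 for Mcm3, 0.44 for Cdc6, 0.35 for Mcm2, 0.15 for Pcna and -0.17 for Mcm6, against 0.69, 0.70, 0.61, 0.27 and 0.16 in that order with all arrays. E2f1 was 0.51 without it. Without WT replicate 1, Mki67 differed by 0.18 and Top2a by 0.23. Among the mitosis members, Mki67 differed by 0.51 ± 0.55 (SE, 95% interval -0.65 to 1.68, adjusted p = 0.682), Top2a by 0.44 ± 0.48 (-0.58 to 1.46, adjusted p = 0.687) and Cdk1 by 0.21 ± 0.16 (-0.14 to 0.57, adjusted p = 0.540). These intervals run from below 0 to above 0. The dimmer probe sets of Top2a differed by 0.57 ± 0.12 (SE, limma adjusted p = 0.0142 over 21218 probe sets, a test chosen after seeing the data) and by 0.26 ± 0.11 (adjusted p = 0.207), so that 1 of its 3 probe sets passed, at a mean signal of 1.80. The dimmer probe sets of Kif11 and Prc1 differed by -0.079 and -0.046, against 0.23 and 0.48 for the brightest. That of Pcna differed by 0.28, against 0.27. Cdk1 (probe set 10369815) read 4.09, 3.68, 3.61 and 3.63 in DKO and 3.23, 3.84, 3.44 and 3.65 in WT islets, with DKO replicate 1 the highest. Mcm6 read 4.80, 4.21, 5.00 and 6.00 in DKO and 4.53, 4.79, 5.27 and 4.77 in WT islets, so that the DKO arrays reached both below and above the WT range. Pcna read 7.38, 7.05, 7.57 and 7.82 in DKO and 7.23, 7.22, 7.24 and 7.06 in WT islets, a difference of 0.27 ± 0.14 (SE, adjusted p = 0.319).

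Other cell types differed between these groups too. The mean of 14 stellate cell and fibroblast genes was 5.63 to 6.17 in DKO and 5.06 to 5.29 in WT islets, with 7 of the 14 higher by limma's test, and that of 16 endothelial genes was 6.97 to 7.19 in DKO and 6.87 to 6.93 in WT islets. The 2 red blood cell genes averaged 4.82, 5.17, 4.55 and 3.62 in DKO and 3.29 to 3.64 in WT islets, with 1 of the 2 higher by the test, and 4 of 20 macrophage genes were higher. The mean of 19 acinar genes was 6.96 to 7.37 in DKO and 4.80 to 7.76 in WT islets, with 18 of 19 above 0 (median difference 1.01), 0 passing and 2 at an unadjusted p under 0.05. The mean of 21 beta cell genes was 9.75 to 10.13 in DKO and 10.02 to 10.09 in WT islets, with 0 passing and 7 lower at an unadjusted p under 0.05. The part of these cells in the higher readings of the members was not tested.

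**Figure D5:**
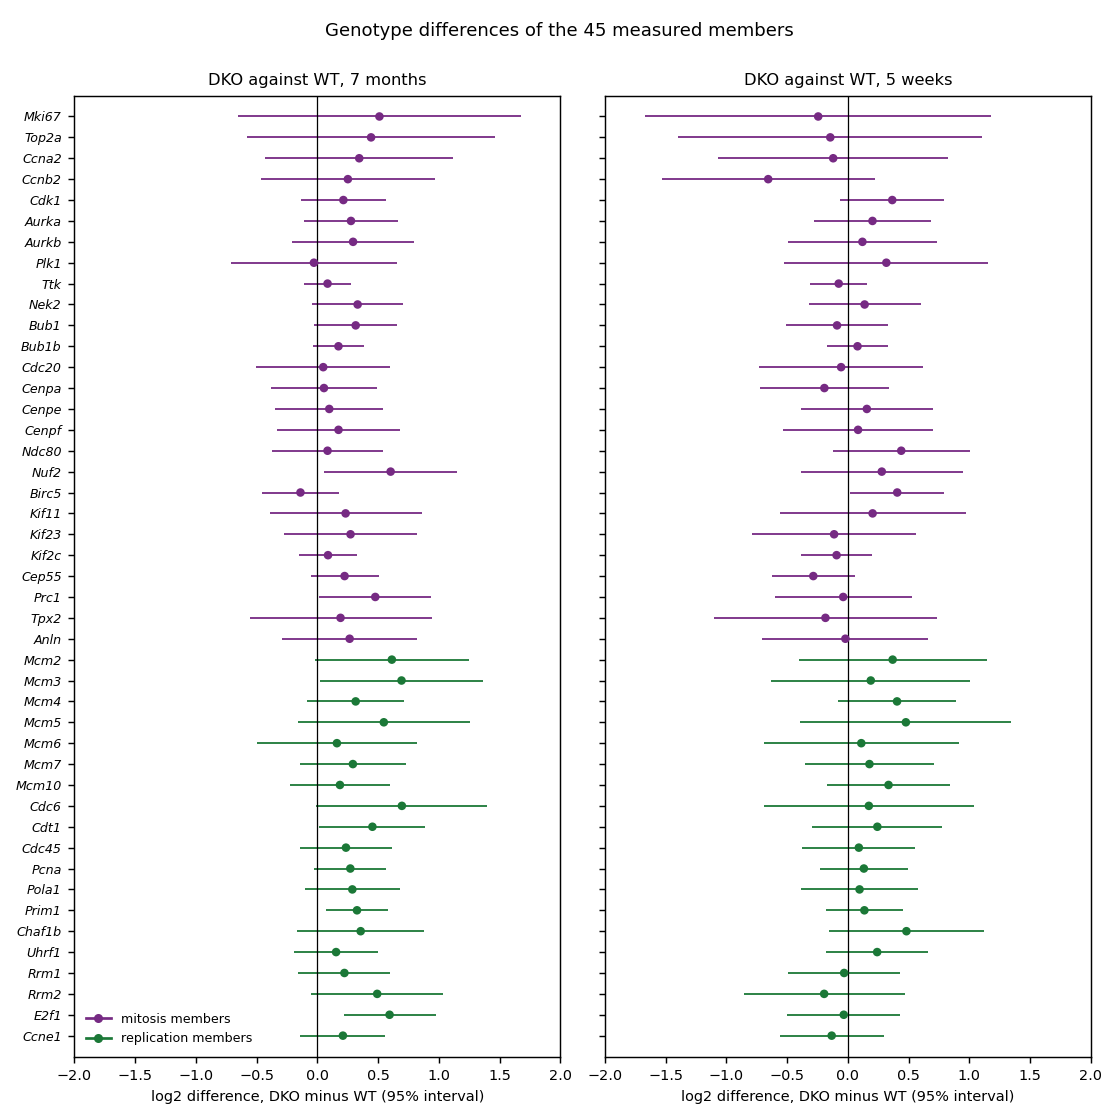
Log2 difference between genotypes, DKO minus WT, with its 95% interval from limma for each measured member at 7 months (left) and 5 weeks (right), mitosis members in purple and replication members in green. At 7 months 43 of 45 points lie above 0, at 5 weeks 27 of 45, and the intervals of Mki67 and Top2a are the widest in both panels.

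At 5 weeks, with 2 DKO and 4 WT arrays, the genotypes could not be separated for these genes. Of the 45 members 0 passed limma's test, against 0.994% of all genes, and 1 had an unadjusted p under 0.05 (2.22%, against 12.1% of all genes). The difference was above 0 in 27 members, with a median of 0.11 (0.01 over all genes). It was -0.35 without DKO replicate 2 and 0.61 without replicate 1. Birc5, a subunit of the chromosomal passenger complex, read 2.74 and 3.51 in DKO islets and 2.69, 2.75, 2.82 and 2.60 in WT islets (difference 0.41 ± 0.18, SE, limma adjusted p = 0.380). Cep55, which acts in the final cut between daughter cells, read 2.15 and 2.31 in DKO islets and 2.81, 2.44, 2.49 and 2.32 in WT islets, and was the 1 member of 45 whose groups did not overlap, against 21.6% of all genes. Its difference was -0.29 ± 0.16 (SE, adjusted p = 0.517), between dim signals.

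Cdk1, the kinase that starts mitosis, read 3.41 and 4.14 in DKO islets and 3.51, 3.31, 3.52 and 3.31 in WT islets at 5 weeks (0.36 ± 0.20, SE, limma adjusted p = 0.505). The WT arrays thus straddled the lower DKO array and lay below the higher one. Mcm4 (0.40), the kinetochore gene Ndc80 (0.44), Chaf1b (0.48), Ccnb2 (-0.66) and the replication factor Mcm10 (0.33) had the next smallest p-values, with adjusted p-values of 0.520 to 0.644. Ccnb2 read 3.76 and 5.27 in DKO islets and 4.98, 5.34, 4.97 and 5.39 in WT islets. Mki67 differed by -0.24 ± 0.67 (SE), with a 95% interval of -1.67 to 1.18. Mcm6 read 4.59 and 5.73 in DKO islets and 4.91, 5.05, 5.19 and 5.05 in WT islets, and Pcna read 7.28 and 7.74 in DKO islets against 7.40, 7.36, 7.42 and 7.34 in WT islets. In both genes the DKO pair enclosed all WT arrays. The same held for Rrm2, at 3.84 and 4.97 in DKO islets and 4.69, 4.23, 4.84 and 4.65 in WT islets. E2f1 read 5.40 and 6.03 in DKO islets and 5.67, 5.37, 6.15 and 5.80 in WT islets, with full overlap.

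By role at 5 weeks, the difference was above 0 in 10 of 10 licensing and firing genes (median 0.22) and 5 of 5 genes of the fork and chromatin copying (median 0.14). It was above 0 in 0 of 2 genes of nucleotide supply and 0 of 2 of G1 to S control. Among the mitosis roles it was above 0 in 5 of 6 centromere and kinetochore genes (median 0.22) and 6 of 11 cyclins, kinases and checkpoint genes (median 0.08). It was so in 1 of 7 spindle and cytokinesis genes (median -0.09) and in 0 of 2 proliferation markers, Mki67 and Top2a. The wide DKO pair enters all of these. The mean of 19 acinar genes was 8.28 and 7.82 in DKO and 5.57 to 7.61 in WT islets at 5 weeks, and its part in the members' values was not tested.

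Time was then compared within each genotype, and both comparisons share arrays with those above. In DKO islets (4 arrays at 7 months, 2 at 5 weeks) 0 of 45 members passed limma's test, against 7.57% of all genes, and 3 had an unadjusted p under 0.05 (6.67%, against 21.5% of all genes). The median difference, 7 months minus 5 weeks, was -0.01 (0.02 over all genes), and 22 of 45 were above 0. E2f1 read 6.51, 6.02, 6.18 and 6.56 at 7 months and 5.40 and 6.03 at 5 weeks (0.60 ± 0.22, SE, adjusted p = 0.112). Rrm2 read 5.45, 4.39, 5.55 and 5.41 at 7 months and 3.84 and 4.97 at 5 weeks (0.79 ± 0.31, adjusted p = 0.150). In both genes single arrays of the times overlapped. Birc5 (-0.40), Ccne1 (0.42), Prim1 (0.25), Aurkb, the kinase of the passenger complex (-0.41), Mcm3 (0.46) and Rrm1 (0.25) followed, with adjusted p-values of 0.208 to 0.560. In 0 members were the groups free of overlap, against 26.7% of all genes. The values depend on which array of the DKO pair at 5 weeks is kept, since the median was 0.41 without its replicate 2 and -0.36 without its replicate 1. Over the same comparison 5 of 16 endothelial, 5 of 20 macrophage and 3 of 14 stellate cell and fibroblast genes rose, and their part in the members' values was not tested.

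In WT islets (4 arrays at each time) more mitosis genes read lower than higher at 7 months, and 0 of 45 members passed limma's test, against 2.37% of all genes. An unadjusted p under 0.05 was reached by 5 members, all lower at 7 months and all of mitosis (11.1%, against 14.6% of all genes). The difference was above 0 in 12 of 45 members (56.8% of all genes). Its median was -0.27 over the 26 mitosis members, 4 of which were above 0, and -0.01 over the 19 replication members, 8 of which were above 0, against 0.03 over all genes. Ccnb2 read 3.73, 4.22, 4.88 and 4.59 at 7 months and 4.98, 5.34, 4.97 and 5.39 at 5 weeks, without overlap (-0.82 ± 0.34, SE, limma adjusted p = 0.270). Cep55 had the smallest p (-0.41 ± 0.13, SE, adjusted p = 0.134), and passed the test when WT replicate 2 at 7 months was left out (-0.52, adjusted p = 0.0460). Aurkb (-0.58), Kif2c (-0.28), the checkpoint kinases Bub1 (-0.36) and Ttk (-0.18), Nuf2 (-0.49) and Anln, which organises the cleavage furrow (-0.45), followed, with adjusted p-values of 0.256 to 0.468.

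All WT arrays at 7 months lay below all WT arrays at 5 weeks in 4 of 45 members, Ccnb2, Aurka, Bub1 and Pcna (against 11.6% of all genes in either direction). Pcna read 7.23, 7.22, 7.24 and 7.06 at 7 months and 7.40, 7.36, 7.42 and 7.34 at 5 weeks, a small difference (-0.19 ± 0.14, SE, limma adjusted p = 0.572). Its SD was 0.09 and 0.04 in these WT groups, and 0.33 and 0.32 in DKO islets at 7 months and 5 weeks. The SE pools all 14 arrays and so is wider than the WT arrays alone would give. Aurka, the kinase of the spindle poles, read 3.71, 3.99, 4.15 and 4.12 at 7 months and 4.20, 4.22, 4.40 and 4.29 at 5 weeks (-0.28 ± 0.18, adjusted p = 0.523). Mki67 differed by -0.74 ± 0.55 (SE, 95% interval -1.90 to 0.43, adjusted p = 0.594), with WT replicates 3 and 4 at 7 months inside the range of the WT arrays at 5 weeks and replicates 1 and 2 well below it. The mean of 19 acinar genes in these groups was 4.80 to 7.76 at 7 months and 5.57 to 7.61 at 5 weeks, and was 5.97 and 7.76 in replicates 1 and 2 at 7 months. Of 16 endothelial genes (mean 6.87 to 6.93 at 7 months and 6.63 to 6.78 at 5 weeks) 3 rose, and of 14 stellate cell and fibroblast genes (mean 5.06 to 5.29 at 7 months and 5.30 to 5.56 at 5 weeks, median difference -0.33) 2 fell and 1 rose. The part of these cells in the members' values was not tested.

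The interaction asks whether the genotype difference changed with time. Of the 45 members 0 passed limma's test, against 0.0903% of all genes, and 3 had an unadjusted p under 0.05 (6.67%, against 10.1% of all genes). Cep55 (0.51 ± 0.21, SE), Birc5 (-0.54 ± 0.23) and E2f1 (0.63 ± 0.28) had the smallest p-values, with limma adjusted p-values of 0.408 to 0.469. The next were Rrm2 (0.69 ± 0.40), Ccnb2 (0.91 ± 0.53), Bub1 (0.41 ± 0.25), Prc1 (0.52 ± 0.34) and Ccne1 (0.34 ± 0.26). The median over the 45 members was 0.19 (0.00 over all genes), and ran from -0.31 without DKO replicate 1 at 5 weeks to 0.59 without replicate 2.

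Few genes of the same pathways outside the 53 passed the test. Of 79 other mitosis genes measured (of 86 listed), 0 passed limma's test in any of the 5 comparisons. An unadjusted p under 0.05 was reached by 10 between genotypes at 7 months (12.7%, 9 of them higher in DKO islets) and 7 at 5 weeks (8.86%). It was reached by 4 over time in DKO islets (5.06%), 4 over time in WT islets (5.06%) and 1 in the interaction (1.27%). The shares of all genes were 18.4%, 12.1%, 21.5%, 14.6% and 10.1% in the same order. Cks1b, a partner of the cyclin-dependent kinases (0.72 ± 0.23, SE, adjusted p = 0.0877), and the kinetochore gene Cenpn (0.74 ± 0.26, adjusted p = 0.132) came nearest at 7 months. Of 61 other DNA replication genes (of 66 listed), Chaf1a rose in DKO islets at 7 months, and Rpa1 rose in DKO islets at 7 months against 5 weeks. Each was the 1 gene of the 61 to pass, where 4.71% and 7.57% of all genes did. Chaf1a, the partner of Chaf1b in chromatin assembly factor 1, differed by 0.56 ± 0.13 (SE, limma adjusted p = 0.0186), without overlap of the groups. Rpa1, which coats single-stranded DNA, differed by 0.40 ± 0.10 with time (adjusted p = 0.0293). Neither passed in the other 4 comparisons. Of the 61 genes, 0 passed at 5 weeks, over time in WT islets or in the interaction. At an unadjusted p under 0.05 there were 3, 2 and 3 in that order (4.92%, 3.28% and 4.92%, against 12.1%, 14.6% and 10.1% of all genes).

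Of 14 measured genes of quiescence and cell cycle arrest (of 15 listed), 2 passed at 7 months in opposite directions, against 4.71% of all genes. There 4 of the 14 had an unadjusted p under 0.05 (28.6%, against 18.4% of all genes). Cdkn2b, an inhibitor of Cdk4 and Cdk6, fell by 0.41 on the log2 scale in DKO islets (limma adjusted p = 0.0354), and Cdkn2c, another inhibitor of the same kinases, rose by 0.58 (adjusted p = 0.0357). Btg2, an antiproliferative gene, rose by 0.61 with time in DKO islets (limma adjusted p = 0.0334). It was the 1 gene of the 14 to pass there, where 7.57% of all genes did. In that comparison 4 of the 14 had an unadjusted p under 0.05 (28.6%, against 21.5% of all genes). At 5 weeks, over time in WT islets and in the interaction 0 of these 14 genes passed limma's test. At an unadjusted p under 0.05 there were 2, 4 and 1 in that order (14.3%, 28.6% and 7.14%, against 12.1%, 14.6% and 10.1% of all genes).

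Across the 14 arrays, the 50 genes outside the 53 whose signal correlated best with the members' mean held 18 other mitosis genes, 7 other replication genes and 25 genes in neither list. The lowest r among the 50 was 0.76. The first 10 in neither list were Grtp1 (0.89), Ilk (0.88), D17H6S56E-5 (0.88), Alg12 (0.87), Syt5 (0.84), Elovl1 (0.83), Aida (0.82), Ap2m1 (0.82), Smpd1 (0.81) and Ces3a (0.81). Their range over the arrays was 0.36 to 1.73 log2 units, against 2.84 for Mki67.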

How the data were processed

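Islet RNA of 14 mice (4 DKO and 4 WT at 7 months, 2 DKO and 4 WT at 5 weeks) was labelled and hybridised, 1 array per mouse, per the labels' protocols. The values deposited by the authors are log2 signals per probe set, made with RMA per the submitters' processing notes (version not given in the sources used here). No scanner files were used, and the number of arrays limits the precision. Of 35556 probe sets, 21218 carried 1 gene symbol, 1881 several and 12457 none. The brightest single-symbol probe set stood for each of 18820 genes, named through RefSeq GRCm38.p6 (18790 matched by Entrez ID).

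limma 3.58.1 (R 4.3.3; lmFit and eBayes, 1 mean per group, all 14 arrays) gave log2 differences, standard errors, 95% intervals and Benjamini-Hochberg adjusted p-values over 18820 genes, with a threshold of 0.05. The median standard error was 0.11 at 7 months and 0.14 at 5 weeks. The fit was tested on simulated data. Figures and tables used Python 3.11.15, pandas 2.3.3 and matplotlib 3.10.9. Overlap compares single arrays of the groups. Members and lists were chosen with earlier results of these data known. Members named are those set as main markers, up to 8 with the smallest p per comparison, and those with the largest and smallest SD over the 14 arrays in each role group. From the other pathway lists up to 4 genes per comparison with the smallest p could be named. Further genes, named for a direction or a group, were chosen after their values were seen. Alternatives were the arrays fitted, the prior, dim genes, probe set choice, normalization, array weights, blocks and leaving out each array.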

Additional observations from a re-analysis of the deposited data

Results flagged for a closer look

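In 7 of the 135 sets of 4 arrays tested (45 members in 3 groups) a single array stood apart from the other 3 by Dixon's criterion, and chance gives about 1 in 20. In DKO islets at 7 months these were Cdk1 in replicate 1 (4.09, others 3.61 to 3.68), the helicase subunit Mcm4 in replicate 4 (6.19, others 5.38 to 5.43) and Rrm2 in replicate 2 (4.39, others 5.41 to 5.55). In WT islets at 7 months they were Rrm2 in replicate 1 (4.52, others 4.75 to 4.78) and Pcna in replicate 4 (7.06, others 7.22 to 7.24). In WT islets at 5 weeks they were Uhrf1 in replicate 4 (2.14, others 2.41 to 2.45) and Ccne1 in replicate 2 (5.21, others 5.47 to 5.51). Rrm2 is the member with a low array in both groups at 7 months. The DKO pair at 5 weeks is too small for this criterion.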

How the results depend on the processing

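Over 24 alternative settings, 14 of which leave out an array, 1536 of 1601 values of single members kept their direction and their side of the threshold, 13 passed it in addition and 52 changed sign. Many of these values could not change sign. Leaving out an array of another group, or changing the prior, leaves the difference between 2 groups as it was. The count is therefore no measure of how stable the directions are. At 7 months 1 of 45 members (E2f1, limma adjusted p = 0.0490) passed with a trended robust prior, against 1128 of 18820 genes. Without dim genes 1 of 10 members tested passed (E2f1, limma adjusted p = 0.0425), against 1063 of 9410 genes. When an array was left out 0 to 5 of 45 passed, with 5 against 1681 of 18820 genes without DKO replicate 2. Between times, 0 to 2 members passed in DKO islets without 1 array, with 2 against 2051 of 18820 genes without DKO replicate 2 at 7 months. In WT islets 0 to 1 did, with 1 against 389 of 18820 genes without WT replicate 2 at 7 months. At 5 weeks and in the interaction 0 members passed under any setting. With the mean of a gene's probe sets, Top2a was 0.037 at 5 weeks and 0.083 over time in DKO islets. Cdk1 over time in DKO islets was 0.046 after repeated quantile normalization and 0.028 with arrays centred on their median. With array weights, E2f1 was 0.016 at 5 weeks and 0.033 over time in WT islets, and Top2a 0.017 over time in DKO islets. Deviations of same-numbered arrays from their group means correlated at -0.16 to 0.16. Deviations within a group sum to 0, so these correlations cannot decide whether arrays were paired. With the replicate block no count of members changed, while at 5 weeks Mki67 was 0.10, Top2a 0.11 and E2f1 0.11, over time in DKO islets Mki67 was -0.32 and Cdk1 0.021, and the interaction of Mcm6 was -0.20. Leaving out each array gave medians of the members of -0.35 to 0.61 at 5 weeks, -0.36 to 0.41 over time in DKO islets and -0.31 to 0.59 in the interaction, the extremes being those without a DKO array at 5 weeks, where the lone array is assumed to vary like the others. The single-member ranges at 5 weeks were -0.00148 to 0.73 for Cdk1, -0.078 to 1.04 for Chaf1b, -1.41 to 0.10 for Ccnb2, -0.11 to 0.78 for Mcm10, -1.60 to 1.11 for Mki67, -1.47 to 1.18 for Top2a, -0.46 to 0.68 for Mcm6, -0.10 to 0.36 for Pcna, -0.76 to 0.37 for Rrm2 and -0.35 to 0.28 for E2f1. At 7 months the ranges were -0.17 to 0.43 for Mcm6, 0.18 to 0.86 for Mki67, 0.22 to 0.82 for Top2a, 0.41 to 0.98 for Mcm3, 0.44 to 0.95 for Cdc6, 0.35 to 0.89 for Mcm2 and 0.15 to 0.41 for Pcna. In an alternative chosen after seeing the data, which is not among the 24, dimmer probe sets at 7 months gave 0.57 (limma adjusted p = 0.0142) and 0.26 for Top2a. They gave -0.046 for Prc1 and -0.079 for Kif11, both of the other sign than the brightest probe set, and 0.28 for Pcna. Over time in DKO islets the single-member ranges on leaving out each array were -0.21 to 1.14 for Mcm3, -0.26 to 0.76 for Rrm1, -1.33 to 1.37 for Mki67, -1.39 to 1.25 for Top2a, -0.39 to 0.35 for Cdk1, -0.73 to 0.41 for Mcm6 and -0.28 to 0.17 for Pcna. Over time in WT islets they were -0.022 to 0.18 for Rrm2 and -0.15 to 0.11 for E2f1. In the interaction they were -0.60 to 2.11 for Mki67, -0.73 to 1.91 for Top2a, -0.52 to 0.22 for Cdk1, -0.52 to 0.62 for Mcm6 and -0.088 to 0.37 for Pcna. The cause of these changes was not tested. The interaction has no fit on only the arrays compared, since it uses all. For the 23 members below all array medians, a low signal that may lie near background limits the size of a change.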
